A study of Saccharomyces cerevisiae with 75 samples.

Results

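RPL30 (locus YGL030W) encodes the ribosomal protein L30 of budding yeast, and its 3 printed probes, 18 spots, were taken from the 1536 probes and 9216 spots of a splicing-specific array by the gene symbol in the probe gene table. Each array compared total RNA of 2 Saccharomyces cerevisiae strains, one labelled in Cy5 and the other in Cy3, and a value is the log2 ratio of the first-named over the second-named strain. A log2 ratio of 1 means that the first-named strain had 2 times as much signal, relative to the rest of its RNA. Cell number and RNA per cell cannot be told apart in such a ratio. The series measured how splicing changes when SR-like proteins or the decay factor Upf1 are lost.

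The 73 deletion-strain arrays formed 37 extract pairs, which are pairs of RNA extracts hybridised together. In 36 of them the same extracts were also hybridised with the dyes exchanged, and both arrays were averaged to 1 value. The npl3 deletion (npl3Δ, Dnpl3 in the labels) was set against its matched wild type (WT) in 7 pairs at 30 °C. The same strains were compared after a shift to 37 °C for 15 min (2 pairs), 30 min (6 pairs) and 45 min (1 pair), and after 30 min at 16 °C (1 pair). The gbp2Δ and hrb1Δ strains were each compared with WT in 1 pair at 30 °C and 2 pairs at 37 °C for 30 min, and the gbp2Δ hrb1Δ strain in 2 pairs under each condition. At 30 °C, single pairs set npl3Δ upf1Δ over WT, npl3Δ over npl3Δ upf1Δ, npl3Δ upf1Δ over upf1Δ, and upf1Δ over npl3Δ. At 37 °C for 15 min, single pairs set upf1Δ over WT, npl3Δ upf1Δ over WT, npl3Δ upf1Δ over npl3Δ, and npl3Δ over upf1Δ. At 37 °C for 30 min, single pairs set upf1Δ over WT, and a strain labelled Dupf1+Dnpl3 over npl3Δ. The 2 other arrays set the temperature-sensitive mutant prp2-1 over prp5-1 and over prp8-1 after 30 min at 37 °C, each once and with prp2-1 in Cy5. No culture conditions beyond temperature and time, and no strain background, are given in the sources used here.

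L30 is a protein of the large ribosomal subunit, and RPL30 is one of the minority of ribosomal protein genes of this yeast present in a single copy. Its transcript carries an intron. L30 that is in excess binds a kinked fold at the start of its own transcript and blocks its splicing, a classic case of a protein that limits its own production. Npl3, Gbp2 and Hrb1 are SR-like RNA-binding proteins that travel with messenger RNA, and Upf1 (gene NAM7) is the RNA helicase of nonsense-mediated decay, the pathway that destroys transcripts with early stop codons. Transcripts that leave the nucleus with an intron inside often meet that pathway.

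Where each probe lies in the RPL30 transcript is not given in the sources used here, so the probes are named by print order. The first and second probes were printed in neighbouring wells of one print run and the third in a later run, an order shared by 230 genes, 98 of them for ribosomal proteins. Arrays of this kind usually carry probes for an exon, an intron and the spliced junction, but which is which was not assigned. The second minus the third probe, called the probe contrast here, records unequal change among the probes of one gene and nothing more. No genome build is named for the probes, and no coordinates or sequences are given.

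Of 225 RPL30 values per probe and array, 144 rested on all 6 spots. The second probe had all 6 spots on 25 of 75 arrays, against 64 for the first and 55 for the third. The SD among the spots of a value had a median of 0.28 for the second probe, 0.16 for the first and 0.13 for the third. Intensities were not used, so precision is limited by how many arrays and spots there are.

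Probes of the deleted genes were read in every pair as a check of the labels. NPL3 lay between -2.19 and -0.63 in 16 of the 17 npl3Δ over WT pairs, but at 1.47 in replicate 3 at 30 °C, so that pair goes against its label and is called the pair labelled npl3Δ over WT, replicate 3. NAM7 lay between -4.24 and -2.23 in 6 of the 7 pairs with a strain without Upf1 over one that has it, at -1.25 in upf1Δ over npl3Δ at 30 °C, and at 2.70 and 3.63 in the 2 pairs of the opposite order. GBP2 lay between -3.06 and -2.72 in the gbp2Δ pairs. HRB1 was at -1.35 and -1.72 in the hrb1Δ pairs at 37 °C but at -0.43 in the only one at 30 °C, where the 17 npl3Δ over WT pairs ranged from -0.35 to 0.78. Array titles fall into 6 series, called title series A to F here. The npl3Δ over WT pairs at 30 °C are spread over A, B, C, D and F, and those at 37 °C for 30 min over A, B, D and F. The gbp2Δ and hrb1Δ pairs at 37 °C lie in B and D. Both npl3Δ over WT pairs after 15 min lie in D, all gbp2Δ hrb1Δ pairs lie in F, and the other groups are single pairs. In those groups the response and the title series cannot be told apart. Separate cultures are nowhere stated in the labels, so the p-values reflect spread among extract pairs that may be technical.

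The 3 probes did not behave alike. Over the 37 deletion-strain pairs the first and the third probes moved together (Pearson r = 0.81, Spearman rho = 0.80, r = 0.84 without the 2 pairs farthest from the median of the first probe). The second probe went with neither, with r = 0.28 against the first and -0.17 against the third. The median over the other 229 genes with ordered probes was 0.24 for first with the third, 0.12 for first with second and -0.09 for second with the third, and 15 of those genes had a higher r for first with the third than RPL30. These correlations describe pairs that share strains, dyes and title series, and carry no p.

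**Figure D1:**
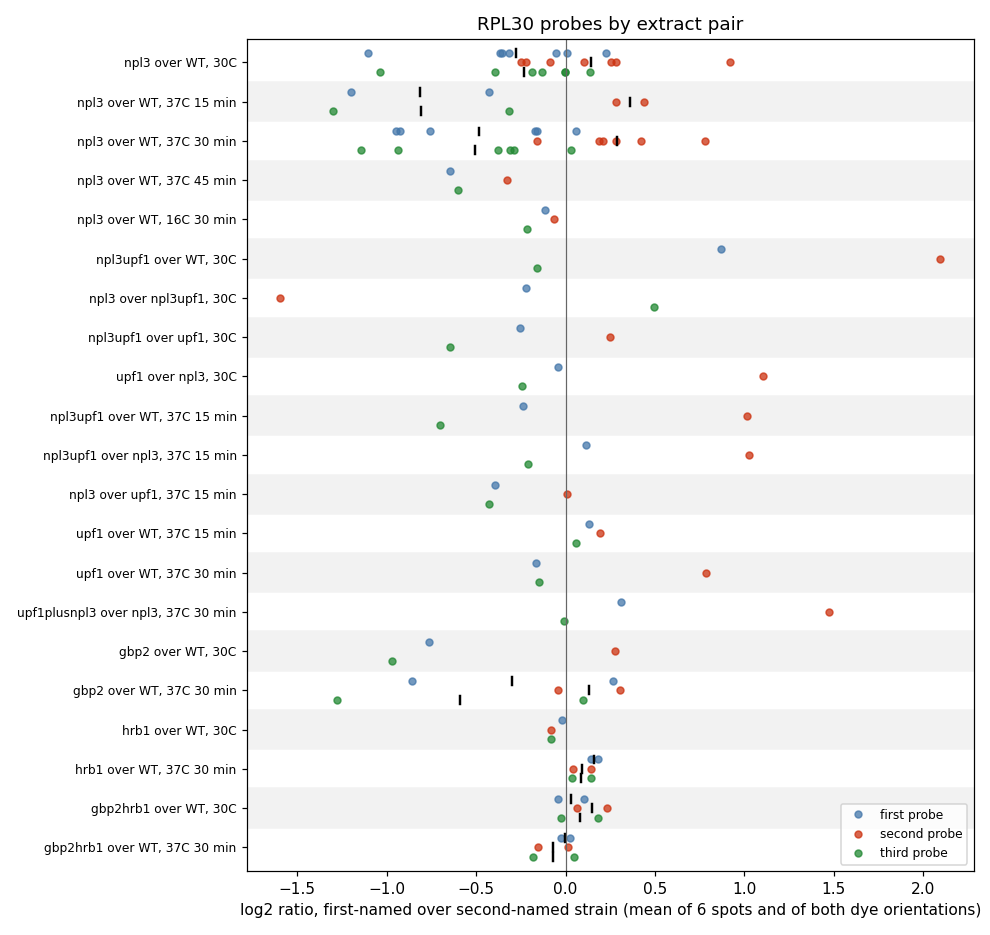
Log2 ratio of the 3 RPL30 probes in each of the 37 extract pairs (points), by group, with short black bars at the mean of groups with over 1 pair. The second probe lies at 2.10 in npl3upf1 over WT and at -1.60 in npl3 over npl3upf1, while the first and the third probes lie near each other in most groups.

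Loss of Npl3 alone shifted the RPL30 probes apart after heat. At 37 °C for 30 min the first probe lay between -0.95 and 0.06 in the 6 pairs, the second between -0.16 and 0.78, and the third between -1.14 and 0.03. The first and the third probes were below 0 in 5 of 6 pairs and the second above 0 in 5 of 6, and the exceptions lay between -0.16 and 0.06. In the fit of all pairs with limma, the first probe fell by 0.49 ± 0.17 (SE, n = 6, adjusted p = 0.0343) and the third fell by 0.51 ± 0.17 (adjusted p = 0.0257), each about 1.4-fold. The second probe was at 0.29 ± 0.12 and did not pass (adjusted p = 0.0724). Over all probes 26.4% were called in this comparison.

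The probe contrast at 37 °C for 30 min was 0.13, 0.16, 0.52, 0.66, 1.36 and 1.92 in the 6 pairs, above 0 in each. It was raised by 0.79 ± 0.21 in the fit (limma, adjusted p = 0.00257), and the exact two-sided sign-flip test over the 6 pairs gave p = 0.0312, the smallest that 6 pairs allow (0.225 after adjustment over 18 such exact tests). Such a rise was common, since 53.5% of the 230 contrasts were called, 120 of them upward, and the median over all genes was 0.44. Among the 97 other ribosomal protein genes 86 were called up with a median of 0.79, and 48 of them lay above RPL30. Among 132 genes of other functions 33 were called up, the median was 0.18, and 8 lay above RPL30. RPL30 stood in the middle of the ribosomal protein genes in its contrast. Its second probe was lower than in 74 of those 97 genes (their median 0.62), and the third was lower than in 87 of them (their median -0.26). These differences in order were not tested.

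The loss of signal at the first and the third probes rested on few pairs. Replicates 2 and 4, of title series B and D, had -0.93 and -0.95 at the first probe, and leaving out either one ended both calls (first probe -0.40 and -0.39, adjusted p = 0.130 and 0.114; the third probe -0.42 and -0.38, adjusted p = 0.106 and 0.110). The first-probe call was also lost without replicate 6, a single array with no dye exchange (-0.43, adjusted p = 0.101). Leaving out title series B, D or F ended the first-probe call (-0.40, -0.45 and -0.55, adjusted p = 0.123, 0.151 and 0.0517), and leaving out B or D the call of the third (-0.42 and -0.39, adjusted p = 0.0828 and 0.145). Neither call held with the first-named strain in Cy3 only (-0.39 and -0.34, adjusted p = 0.179 and 0.199) or with array quality weights (-0.23 and -0.30, adjusted p = 0.370 and 0.211). The contrast kept its call without any 1 pair (0.57 to 0.92), but not without title series D (0.58, adjusted p = 0.0663). Within single title series it was 0.13 (A), 1.36 (B), 1.22 (D) and 0.41 (F).

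At 30 °C no RPL30 measure passed the test. The lowest, median and highest values of the 7 pairs were -1.10, -0.32 and 0.23 for the first probe, -0.25, 0.10 and 0.92 for the second, and -1.04, -0.13 and 0.14 for the third. The highest second-probe value, replicate 7, includes an array whose 6 spots had an SD of 3.35 with 1 spot at 8.83. The fitted values were -0.19 ± 0.15 for the first, 0.18 ± 0.10 for the second and -0.18 ± 0.15 for the third probe (limma, adjusted p = 0.549, 0.391 and 0.574). The contrast was 0.35 ± 0.18 (adjusted p = 0.158), above 0 in 5 of 7 pairs, and the exact sign-flip test gave p = 0.125. Of all probes 4.3% were called, and of all contrasts 25.7%, including 47 of the 97 other ribosomal protein genes, whose median was 0.47. With the sign of the pair labelled npl3Δ over WT, replicate 3, turned, the contrast was 0.41 (adjusted p = 0.0452).

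The difference between the 37 °C 30 min and the 30 °C responses to Npl3 loss was tested directly. The contrast differed by 0.44 ± 0.28 (limma, adjusted p = 0.57), with a 95% interval from -0.13 to 1.01, and the exact permutation test over the 13 pairs gave p = 0.249. No feature was called for this difference among single probes (0%, with 131 of 1536 at an unadjusted p under 0.05) or contrasts (0%, with 21 of 230). The within-series differences of the contrast were 0.52 (A), 0.86 (B), 0.80 (D) and -0.53 (F).

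After 15 min at 37 °C both npl3Δ over WT pairs moved the same way as at 30 min. The first probe was at -1.20 and -0.43, the second at 0.44 and 0.28, and the third at -1.30 and -0.32. The contrast rose by 0.95 ± 0.29 (limma, n = 2, adjusted p = 0.0407), above a median over all genes of 0.30, where 10.4% of contrasts and 4.17% of single probes were called. That call was lost without either of these pairs (0.56 and 1.13, adjusted p = 0.404 and 0.0915), without npl3Δ over upf1Δ (1.03, adjusted p = 0.065) and without npl3Δ upf1Δ over npl3Δ (1.05, adjusted p = 0.0671). The single pair after 45 min had -0.65, -0.33 and -0.60 at the first, second and the third probe, and the single pair at 16 °C had -0.11, -0.07 and -0.22. Neither was called at any probe or in the contrast (0.28 and 0.15). Of all probes 0% were called at either time, and of contrasts 0% at 45 min and 0.435% at 16 °C, so single pairs called few features of any gene. In the 45 min pair the first probe was at 0.22 with npl3Δ in Cy3 and at -1.51 in Cy5. The third was at 0.38 and -1.58, and the exchanged arrays of that pair correlated at -0.32 over all probes.

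Loss of Upf1 in cells without Npl3 raised the second RPL30 probe. At 30 °C it was at 2.10 in npl3Δ upf1Δ over WT, and at 2.47 and 1.73 on the arrays with the double mutant in Cy3 and in Cy5. In npl3Δ over npl3Δ upf1Δ it was at -1.60, the opposite sign for the opposite order of strains. The first probe was at 0.87 and -0.22 in these pairs, and the third at -0.16 and 0.49. From all pairs that bear on it, npl3Δ upf1Δ exceeded npl3Δ at 30 °C by 1.68 ± 0.19 at the second probe (limma, adjusted p = 4.9e-07), a 3.2-fold difference with a 95% interval from 2.45-fold to 4.17-fold. The first probe differed by 0.45 ± 0.27 (adjusted p = 0.310) and the third by -0.37 ± 0.26 (adjusted p = 0.419). The contrast rose by 2.05 ± 0.33 (adjusted p = 2.74e-05).

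Many ribosomal protein genes rose in the same comparison, and RPL30 was near the top of them. Of all probes 14.9% were called and of all contrasts 54.3%, all 125 of them upward. The second probe was called up in 81 of 97 other ribosomal protein genes (median 1.08) and in 31 of 132 genes of other functions (median 0.26). The second probe of 12 of 229 other genes lay above that of RPL30, 11 of them for ribosomal proteins, and RPL30 ranked 15 among all 1536 probes. The call held when any of the 11 pairs that bear on it was left out (1.51 to 1.76 at the second probe, 1.99 to 2.14 in the contrast). It also held without title series A, B, D or F. Without series C, which holds both npl3Δ upf1Δ over WT and npl3Δ over npl3Δ upf1Δ, the difference could not be estimated. The call held in either dye orientation alone at the second probe (1.73 with the first-named strain in Cy5, adjusted p = 0.000279, and 1.62 in Cy3, adjusted p = 0.00506).

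Against WT, npl3Δ upf1Δ at 30 °C had the second probe 1.85 ± 0.19 higher (limma, adjusted p = 1.94e-07), a 3.61-fold difference, and the contrast 2.40 ± 0.34 higher (adjusted p = 1.66e-06). The first probe was at 0.26 ± 0.28 and the third at -0.55 ± 0.27, neither called (adjusted p = 0.547 and 0.157). Of all probes 21.5% and of all contrasts 68.7% were called. Among the 97 other ribosomal protein genes the second probe was called up in 92 (median 1.43), and 29 of them lay above RPL30. In npl3Δ over WT at 30 °C, which is fitted from partly the same pairs, 72 of the 97 lay above RPL30 at the second probe, and the difference in order was not tested.

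**Figure D2:**
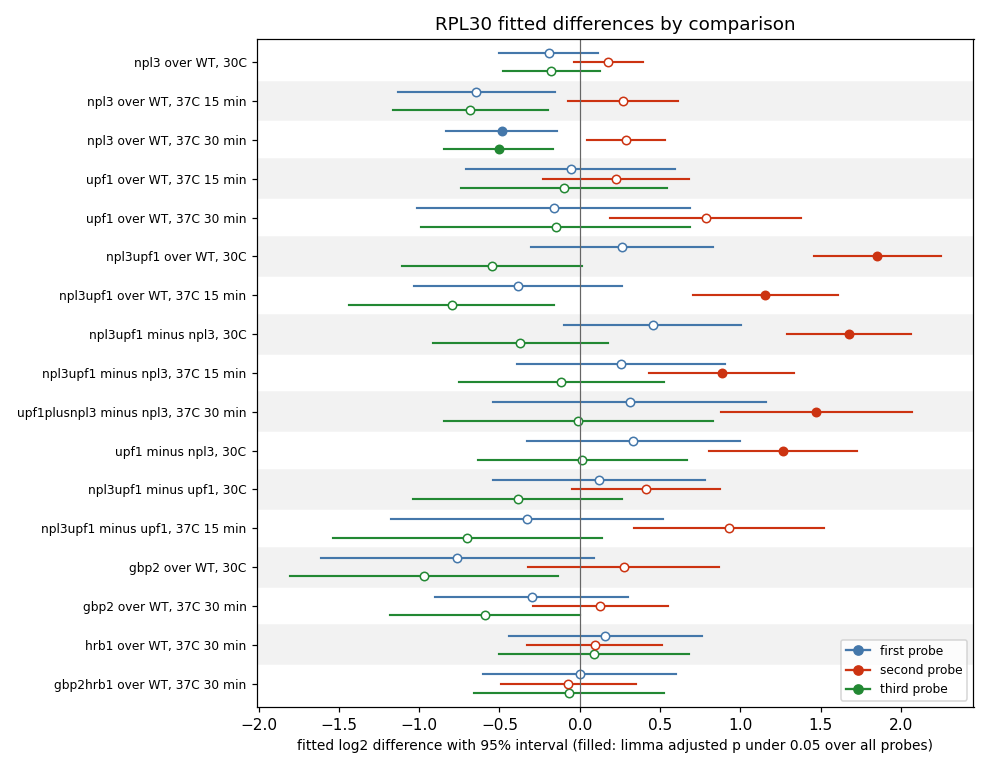
Fitted log2 differences of the 3 RPL30 probes with 95% intervals in 17 comparisons, filled where limma called them. The filled second-probe points lie between 0.88 and 1.85 in comparisons that add or include the loss of Upf1, and the first and the third probes are filled only at 37 °C for 30 min in npl3 over WT, at -0.49 and -0.51.

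At 37 °C the second probe was also higher in npl3Δ upf1Δ than in WT and in npl3Δ. After 15 min it was at 1.02 in npl3Δ upf1Δ over WT and at 1.02 in npl3Δ upf1Δ over npl3Δ, with the third probe at -0.70 and -0.21. The fitted difference was 1.16 ± 0.22 over WT (limma, adjusted p = 0.000645; 9.51% of probes called) and 0.88 ± 0.22 over npl3Δ (adjusted p = 0.0232; 2.67% called). Arrays with the first-named strain in Cy5 alone gave 0.07 for the former, and leaving out either of the pairs npl3Δ upf1Δ over WT and over npl3Δ gave 1.02 and 0.69 for the latter, with no call (adjusted p = 0.161 and 1.00). The contrast rose over WT by 1.95 ± 0.39 (adjusted p = 0.000365; 40.9% of contrasts called), and over npl3Δ it was 1.00 ± 0.39 (adjusted p = 0.133; 4.35% called).

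In the single pair of the strain labelled Dupf1+Dnpl3 over npl3Δ at 37 °C for 30 min, NPL3 was at 0.01 and NAM7 at -3.95. The RPL30 probes were at 0.31, 1.47 and -0.01. The second probe was higher by 1.47 ± 0.29 (limma, adjusted p = 0.00593; 1.17% of probes called, RPL30 ranking 12), and the contrast of 1.48 ± 0.51 did not pass (adjusted p = 0.204; 0.87% of contrasts called). Without title series D, which holds other groups, the adjusted p of the second probe was 0.0709.

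Strains without Upf1 were set directly against strains without Npl3. In upf1Δ over npl3Δ at 30 °C the probes were at -0.04, 1.10 and -0.24. The exchanged arrays of that pair correlated at -0.05 over all probes, with NPL3 at 0.75 and NAM7 at -1.25. The fitted second probe was 1.27 ± 0.22 higher in upf1Δ (limma, adjusted p = 0.00151; 1.43% of probes called, RPL30 ranking 8 of 1536). The contrast of 1.25 ± 0.39 did not pass (adjusted p = 0.0814, with 3.48% of contrasts called). The second probe of 4 other genes lay higher, chosen here after their values were seen, and these were RPL22B (1.85), RPL28 (1.76), IWR1 (1.53) and REC107 (1.36). The median of the other 97 ribosomal protein genes was 0.15 and 6 of them were called up. The call was lost without the pair npl3Δ upf1Δ over upf1Δ (1.10, adjusted p = 0.132), and no pair of upf1Δ over WT at 30 °C was measured. In npl3Δ over upf1Δ after 15 min at 37 °C the second probe was at 0.01, and the fitted value was 0.05 ± 0.22 (adjusted p = 0.986; 1.17% of probes and 0% of contrasts called).

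Loss of Upf1 alone was compared with WT after heat in 1 pair at each time. The second probe was at 0.19 after 15 min and at 0.78 after 30 min, while the first was at 0.13 and -0.16 and the third at 0.06 and -0.15. By orientation the second probe was at 1.23 in Cy3 and -0.85 in Cy5 after 15 min, and at 1.53 and 0.04 after 30 min. Over all probes the exchanged arrays correlated at 0.05 after 15 min and at 0.004 after 30 min. The fitted second probe was 0.23 ± 0.22 at 15 min and 0.78 ± 0.29 at 30 min (limma, adjusted p = 0.999 and 0.685). Neither contrast passed (0.33 and 0.93, adjusted p = 0.994 and 0.982). At 15 min 1.11% of probes and 0.435% of contrasts were called, and at 30 min 0.716% and 0.87%. At 30 min RPL30 ranked 21 among 1536 probes. The 95% interval of that second-probe value ran from 0.19 to 1.38.

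Loss of Npl3 in cells that already lacked Upf1 gave no called second-probe value. In npl3Δ upf1Δ over upf1Δ at 30 °C the probes were at -0.26, 0.25 and -0.65. The fitted second probe was 0.41 ± 0.22 (limma, adjusted p = 0.577, with 3.12% of probes called). The contrast was 0.80 ± 0.39 (adjusted p = 0.147, with 25.7% of contrasts called). After 15 min at 37 °C the fitted second probe was 0.93 ± 0.29 (adjusted p = 0.109; 1.3% of probes called) and the contrast rose by 1.63 ± 0.51 (adjusted p = 0.0373; 9.57% of contrasts called). Leaving out any of 4 pairs at that time ended this call (1.34 to 1.91). The pairs were upf1Δ over WT, npl3Δ upf1Δ over WT, npl3Δ upf1Δ over npl3Δ and npl3Δ over upf1Δ.

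**Figure D3:**
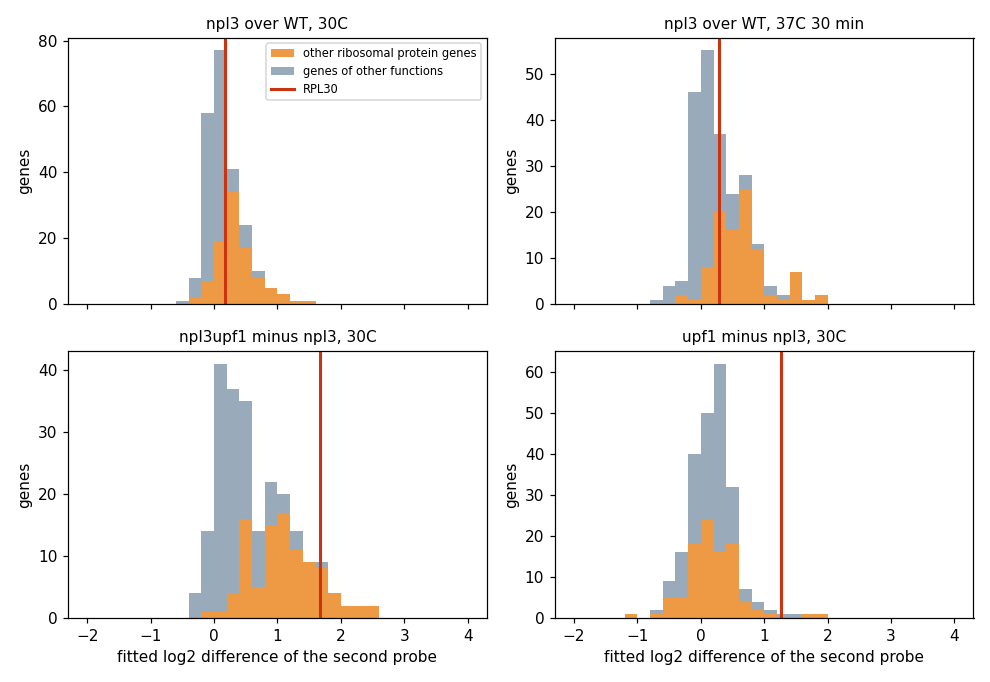
Number of genes by fitted log2 difference of the second probe in 4 comparisons, for 97 other ribosomal protein genes (orange) stacked with 132 genes of other functions (grey), with RPL30 as a red line. RPL30 sits at 0.18 and 0.29 when Npl3 alone is lost, among the lower ribosomal protein genes, and at 1.68 and 1.27 when strains without Upf1 are set over npl3, in the right tail.

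Loss of Gbp2 or Hrb1 gave no called RPL30 value in the fit of all pairs. In gbp2Δ over WT at 30 °C the probes were at -0.76, 0.27 and -0.97, and the contrast of 1.24 ± 0.51 was the highest of the 230 genes, although it did not pass (limma, n = 1, adjusted p = 0.80; 0.846% of probes and 0% of contrasts called, 11 contrasts at an unadjusted p under 0.05). The arrays of that pair belong to title series B, and the first probe had a spot SD of 1.76 on one of them. At 37 °C for 30 min the contrast was 1.23 in replicate 1, also of series B, and 0.20 in replicate 2, of series D. Its fitted value was 0.72 ± 0.36 (adjusted p = 0.593; 0.195% of probes and 0% of contrasts called, 16 contrasts at an unadjusted p under 0.05). The third probe was at -1.28 in replicate 1 and 0.10 in replicate 2, so the pairs lay on opposite sides of 0, and the fitted value was -0.59 ± 0.29 (limma, adjusted p = 0.343). Without replicate 2 it was called (-1.28, adjusted p = 0.0201), and without replicate 1 it was 0.10. At 30 °C the third probe was called under array quality weights (-0.97, adjusted p = 0.00954).

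In hrb1Δ over WT the pair means of the 3 probes lay between -0.08 and -0.02 at 30 °C and between 0.04 and 0.18 in the 2 pairs at 37 °C. These means average unlike arrays. At 30 °C the third probe was at 0.87 with hrb1Δ in Cy3 and at -1.03 in Cy5, and the first at 0.44 and -0.48. Over all probes the exchanged arrays correlated at -0.22 at 30 °C, and at -0.16 and -0.36 at 37 °C. The contrasts were -0.00 ± 0.51 and 0.00 ± 0.36 (limma, adjusted p = 1.00 and 0.991). At 30 °C 0.0651% of probes and 0.435% of contrasts were called, and at 37 °C 0.26% and 0%. In gbp2Δ hrb1Δ over WT the pair means of the 3 probes lay between -0.04 and 0.23 at 30 °C and between -0.18 and 0.05 at 37 °C. Exchanged arrays correlated at -0.28 and 0.51 in the pairs at 30 °C, and at -0.29 and 0.27 at 37 °C. The contrasts were 0.07 ± 0.36 and -0.00 ± 0.36 (adjusted p = 0.999 and 0.993), with 95% intervals from -0.67 to 0.81 and from -0.74 to 0.73. At 30 °C 0.195% of probes and 0% of contrasts were called, and at 37 °C 0.391% and 0%. In the 4 double-deletion pairs GBP2 lay between -4.04 and -2.58 and HRB1 between -2.26 and -1.18. The hrb1Δ values at 30 °C rest on the 1 pair in which HRB1 was at -0.43.

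Responses to loss of Npl3 and of the other SR-like proteins were not shown to differ at RPL30. At 37 °C for 30 min the contrast in npl3Δ exceeded that in gbp2Δ hrb1Δ by 0.80 ± 0.41 (limma, adjusted p = 0.222; 1.37% of probes and 0% of contrasts called), that in hrb1Δ by 0.79 ± 0.41 (adjusted p = 0.185; 0.13% and 9.57% called), and that in gbp2Δ by 0.07 ± 0.41 (adjusted p = 0.897; 2.21% and 1.3% called). At 30 °C the difference between npl3Δ and gbp2Δ hrb1Δ was 0.28 ± 0.40 (adjusted p = 0.936; 0.195% of probes and 0% of contrasts called). The interval of the difference from gbp2Δ hrb1Δ at 37 °C ran from -0.06 to 1.65. In the comparisons with 0% called by limma, 4 to 53 of 230 contrasts and 22 to 131 of 1536 probes had an unadjusted p under 0.05.

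The second probe depended strongly on which dye carried which strain. Its log2 ratio was lower with the first-named strain in Cy5 than in Cy3 in 30 of 36 pairs, by a mean of -0.91 (SD 0.78), and only 21 of the 1536 probes had a larger mean dye difference in either direction. The mean difference was -0.02 (SD 0.52) for the first and -0.37 (SD 0.58) for the third probe. By title series that of the second probe was -0.98 (A), -0.00 (B), -0.88 (C), -1.50 (D), -1.48 (E) and -0.50 (F). Averaging both orientations removes a constant dye difference, and all 36 exchanged pairs hold both. The remaining pair, npl3Δ over WT at 37 °C for 30 min, replicate 6, is a single array with npl3Δ in Cy5. Its second probe (0.28) and contrast (0.66) entered the fit and the exact tests with any dye difference still in them. Single orientations still gave other values in npl3Δ over WT, where the second probe at 37 °C for 30 min was -0.13 in Cy5 and 0.79 in Cy3 (limma, adjusted p = 0.646 and 0.0373).

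**Figure D4:**
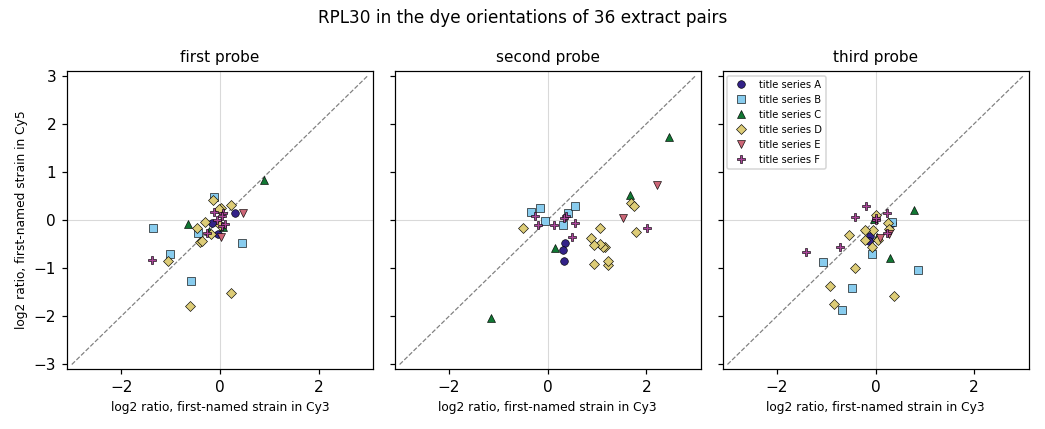
Log2 ratio of each RPL30 probe with the first-named strain in Cy5 (vertical) against Cy3 (horizontal) in 36 extract pairs, with marks by title series and a dashed line of equal values. Most second-probe points lie below the line, by a mean of -0.91, and those of title series B lie near it.

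The prp2-1 arrays were compared by value only, since each is a single array. Prp2 is an RNA helicase that remodels the assembled spliceosome just before the first chemical step, Prp5 is a helicase that acts earlier, at branch point recognition, and Prp8 is the core protein at the catalytic centre. The mutants stop splicing on heating. In prp2-1 over prp5-1 the RPL30 probes were at 0.39, -1.09 and 0.12, each the mean of up to 6 spots. In prp2-1 over prp8-1 they were at 0.01, -0.87 and -0.58. The second probe was the lowest of the 3 in both, and the second probes of other genes had medians of 0.38 and 0.31. The contrast was -1.21 in prp2-1 over prp5-1, with 7 of 229 other genes lower. It was -0.29 in prp2-1 over prp8-1, with 33 lower, and there the third probe had 18 of 229 other genes lower. In prp2-1 over prp5-1 the second probe of 2 of 229 other genes lay lower (RPL19B at -2.32 and MRK1 at -1.78), and in prp2-1 over prp8-1 that of 6, RPL24A (-1.43) and YRA1 (-1.39) among them, all named after their values were seen.

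Both prp2-1 arrays carried prp2-1 in Cy5 and had no exchange. The dye difference of the second probe over the deletion-strain pairs, divided by 2, would place a Cy5-only value at -0.46 with no difference between strains. Of the 37 deletion-strain arrays with the first-named strain in Cy5, 1 lay below -1.09 and 3 lay below -0.87. The lowest was npl3Δ over npl3Δ upf1Δ at 30 °C, with -2.04 in Cy5 and -1.15 in Cy3. The others were hrb1Δ over WT at 37 °C for 30 min, replicate 2 (-0.93 in Cy5 and 1.22 in Cy3), and npl3Δ over upf1Δ at 37 °C for 15 min (-0.91 and 0.93). The part of the dye in the prp2-1 values was not tested.

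**Figure D5:**
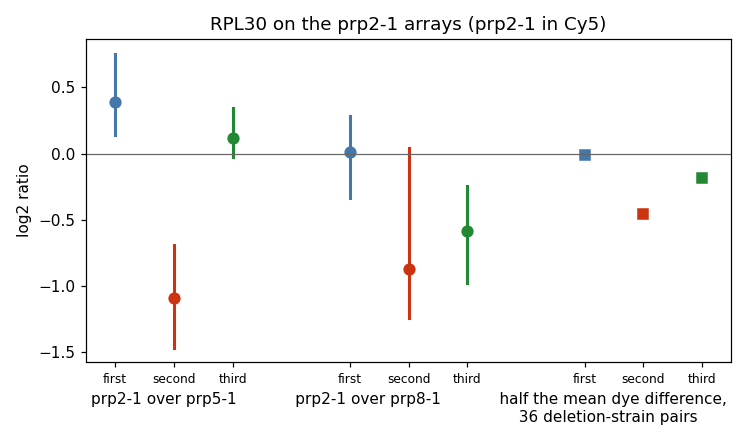
Log2 ratios of the RPL30 probes on the 2 prp2-1 arrays, as means (circles) with the range of spots (lines), beside the mean dye difference over 36 deletion-strain pairs divided by 2 (squares). The second probe lies at -1.09 and -0.87 with prp2-1 in Cy5, and its square at -0.46.

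Other genes whose products act on their own transcripts were measured in the same strains. RPS14B, whose protein represses splicing of its own transcript, had a contrast of 1.91 ± 0.44 in npl3Δ over WT at 30 °C (limma, adjusted p = 0.0039) and 2.09 ± 0.49 at 37 °C for 30 min (adjusted p = 0.00119). YRA1, an export factor that limits its own splicing, rose by 0.68 ± 0.15 in the contrast at 37 °C (adjusted p = 0.0006). DBP2, an RNA helicase whose intron takes part in its control, rose by 0.91 ± 0.27 (adjusted p = 0.0066), and RPL22B, whose protein binds its own intron, by 0.58 ± 0.23 (adjusted p = 0.037). Calls were common in npl3Δ over WT, at 25.7% of all contrasts at 30 °C and 53.5% at 37 °C for 30 min. When Upf1 was lost on top of Npl3 at 30 °C, the second probe rose by 2.52 ± 0.28 in RPL22B (adjusted p = 4.9e-07) and by 1.65 ± 0.52 in RPS14B (adjusted p = 0.0299). It was at 0.36 ± 0.22 in DBP2 and -0.27 ± 0.17 in YRA1, which did not pass (adjusted p = 0.334 and 0.363). That comparison called 14.9% of all probes.

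Intron genes often used as references gave further points of scale. RPL28, a known target of nonsense-mediated decay when unspliced, had a second probe 2.44 ± 0.27 higher in npl3Δ upf1Δ than in npl3Δ at 30 °C (limma, adjusted p = 4.9e-07), and 1.76 ± 0.33 higher in upf1Δ than in npl3Δ (adjusted p = 0.00234). Actin (ACT1) had 0.79 ± 0.19 in the former (adjusted p = 0.00396) and 0.02 ± 0.22 in the latter (adjusted p = 0.997). RPS17A and RPS17B, the copies of a small-subunit protein gene, had 0.52 ± 0.13 and 1.21 ± 0.27 in the former (adjusted p = 0.00807 and 0.00222), and 0.23 ± 0.16 and 0.46 ± 0.32 in the latter (adjusted p = 0.749 and 0.745). RPL24A, the neighbouring gene on the chromosome, had 1.15 ± 0.23 and 0.10 ± 0.28 (adjusted p = 0.000912 and 0.962). The former comparison called 14.9% of all probes and the latter 1.43%. Differences between these genes and RPL30 were not tested, and the copies of a gene may share signal.

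The probe contrast of RPL30 was most like that of RPL35A (Pearson r = 0.83), NYV1 (0.83), RPS23B (0.81), IWR1 (0.80) and RPL37A (0.79) over the 37 deletion-strain pairs, among 229 genes. The least alike were MRPL44 (-0.38), UBC12 (-0.33) and DTD1 (-0.19). By single probes, the first RPL30 probe was most like a probe each of RPL29 (0.86), VMA10 (0.85) and RPS30B (0.85), and the third like RPS30B (0.79), RPL21B (0.79) and RPS26A (0.78). The second was most like the second probes of IWR1 (0.87), RPL6B (0.83) and RPS29B (0.82). The pairs share strains, dyes and title series, so these values describe likeness and carry no test. By Spearman's rho the contrasts of RPL35A, NYV1, RPS23B, IWR1 and RPL37A ranked 4, 2, 6, 8 and 14.

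Genes of the splicing and decay machinery were counted at their own probes in npl3Δ over WT at 37 °C for 30 min, where 26.4% of all probes were called. Of 18 probes for 14 genes of the U1 particle, branch point recognition and cap binding, 3 rose and 2 fell (median 0.02, against -0.02 over all probes). These were the second probe of STO1 (0.91), which encodes the large cap-binding subunit and has an unequal response of its own (-0.49 at its first probe), PRP39 (0.35), NAM8 (0.27) and MUD1 (-0.33), all U1 particle proteins. Of 9 probes for splicing ATPases and U5 proteins 2 fell, PRP43 (-0.46) and PRP8 (-0.46), with a median of -0.11. None of 6 probes for the decay factors NAM7, NMD2 and UPF3 was called there (median 0.09). None of the 4 measured genes of the kink-turn-binding family to which L30 belongs was called in that comparison, with NHP2 at -0.23, SNU13 at -0.24, RPL8A at 0.09 and RPS12 at -0.19. Nor was any of them called in npl3Δ upf1Δ over npl3Δ at 30 °C (median -0.08, against -0.01 over all probes), where 14.9% of all probes were called. Counts over 4 probes are too few to set against these shares.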

How the data were processed

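The deposited values are log2 ratios per spot by the authors, in 1 table of 75 arrays. The table states no scale or direction, and log2 was taken from the values (largest absolute value 12.0). How the scans were background-corrected and normalized is not given in the sources used here. Medians of the arrays ran from -0.03 to 0.033, and nothing was centred. The direction was read as strain 1 over strain 2 in both dye orientations, from the probes of the deleted genes. The correlation between exchanged arrays was below 0 in 10 of 36 pairs (median 0.30, range -0.36 to 0.84), and 3 of these pairs carry the npl3Δ over WT label. RNA was copied into cDNA with aminoallyl dUTP, per the labels.

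Spots were averaged per probe, then the arrays per extract pair. All 37 pairs were fitted together with limma 3.58.1 (R 4.3.3) (17 coefficients, 20 residual degrees of freedom), so single pairs are assumed to vary like the other groups. Benjamini-Hochberg adjustment covered 1536 probes or 230 contrasts, and features were called under 0.05, where at least 50% of pairs had a value. The fit was tested on simulated data. Replicate numbers follow accession order. Gene names come from the platform's gene table, all 8742 lines of which matched the reference table. Named genes were RPL30, a fixed set of self-regulated and reference intron genes, and those most and least like RPL30. RPL30, the lists and the tests were chosen with earlier results of these data known.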

Additional observations from a re-analysis of the deposited data

Results flagged for a closer look

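In npl3Δ over WT at 37 °C for 30 min, the difference between the first and the third RPL30 probes was -0.38 in replicate 6, far below the other 5 pairs, which lay between 0.01 and 0.19. Replicate 6 is the only pair with a single array and no dye exchange. Such a gap was looked for in 12 sets of values (6 measures in the groups of 7 and of 6 pairs), and chance gives about 1 in 20.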

How the results depend on the processing

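The 53 alternative settings were run for the 4 RPL30 measures where they apply, and 2171 of 2413 values kept direction and side of the threshold, 124 uncalled values changed sign, and 26 more did so under first minus second, which turns the sign by its construction. The rise of the second probe in npl3Δ upf1Δ at 30 °C, over WT and over npl3Δ, kept its call under each alternative that could be fitted. Leaving out title series C gave no value for either comparison, so whether the rise holds outside that series was not tested. The median of spots gave 0.31 for the second probe in npl3Δ over WT at 37 °C for 30 min and 0.92 in npl3Δ upf1Δ over upf1Δ at 15 min, and at least 3 spots gave 0.41 for the former, all now called. With strain 1 in Cy5 only, the contrasts 0.53 (npl3Δ, 30 min), 0.43 (npl3Δ, 15 min), 1.14 (npl3Δ upf1Δ over WT, 15 min) and 1.10 (npl3Δ upf1Δ over upf1Δ, 15 min) and the second-probe values 0.068 (npl3Δ upf1Δ over WT, 15 min), 1.16 (upf1Δ over npl3Δ, 30 °C), 0.58 (npl3Δ upf1Δ over npl3Δ, 15 min) and 0.74 (Dupf1+Dnpl3 over npl3Δ) were no longer called. With Cy3 only, 0.77 (contrast, npl3Δ, 30 °C), 0.79 and 1.06 (second probe, npl3Δ, 30 and 15 min) became called, and 1.37 (second probe, upf1Δ over npl3Δ), 1.19 (npl3Δ upf1Δ over npl3Δ, 15 min), 2.21 (Dupf1+Dnpl3) and 2.16 (contrast, npl3Δ upf1Δ over upf1Δ, 15 min) were lost. A dye term with pairs as a random block lost the second probe in npl3Δ upf1Δ over npl3Δ at 15 min (0.88). Array weights added calls for npl3Δ at 30 °C (second probe 0.31, contrast 0.40), the second probe of npl3Δ upf1Δ over upf1Δ at 15 min (0.93) and the contrasts of gbp2Δ at 30 °C (1.24), upf1Δ over npl3Δ (1.25), npl3Δ upf1Δ over npl3Δ at 15 min (1.16) and Dupf1+Dnpl3 (1.48). Title series as a fixed block lost the contrasts 0.73 (npl3Δ, 15 min) and 1.41 (npl3Δ upf1Δ over upf1Δ, 15 min) and the second-probe values 0.84 and 0.78 (npl3Δ upf1Δ over WT and over npl3Δ, 15 min), and added the contrast 1.45 (upf1Δ over npl3Δ). As a random block it lost 0.90 (contrast, npl3Δ, 15 min). Turning the sign of the pair labelled npl3Δ over WT, replicate 3, added the contrasts 0.41 (npl3Δ, 30 °C), 1.24 (upf1Δ over npl3Δ) and 1.48 (Dupf1+Dnpl3).

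Leaving out title series A added the second probe of npl3Δ at 30 min (0.38). Leaving out B or F lost the contrast of npl3Δ upf1Δ over upf1Δ (1.63 in both), D lost the contrast of npl3Δ at 30 min (0.58) and the second probe of Dupf1+Dnpl3 (1.47), and F the contrast of npl3Δ at 15 min (0.95) and the second probe of upf1Δ over npl3Δ (1.10). The first minus the third probe lost the contrasts of npl3Δ at 30 min (0.020) and 15 min (0.037), and of npl3Δ upf1Δ at 15 min over WT (0.41) and over upf1Δ (0.37). The first minus second probe gave -0.77 and -0.92 (npl3Δ, 30 and 15 min), -1.59 and -1.54 (npl3Δ upf1Δ over WT, 30 °C and 15 min), -1.22 (over npl3Δ, 30 °C) and -1.26 (over upf1Δ, 15 min). The second minus the mean of the others lost the last of these (1.44). Leaving out each pair in turn gave ranges of 1.10 to 1.51 (second probe, upf1Δ over npl3Δ), 0.19 to 0.38 (second probe, npl3Δ, 30 min), 0.69 to 1.02 (second probe, npl3Δ upf1Δ over npl3Δ, 15 min), and for contrasts 1.10 to 1.34 (upf1Δ over npl3Δ), 0.56 to 1.13 (npl3Δ, 15 min) and 1.34 to 1.91 (npl3Δ upf1Δ over upf1Δ, 15 min). The falls of the first and the third probe in npl3Δ at 30 min kept their calls under 14 and 17 alternatives and lost them under 11 and 8, namely with Cy3 only (-0.39 and -0.34), array weights (-0.23 and -0.30), title series as a fixed block (-0.43 and -0.46), own pairs only (-0.49 and -0.51), for the first probe also as a random block (-0.47), and otherwise without a pair or title series. The other changes of call at these probes were gains, most of them with array weights. The cause of these changes was not tested. No paired analysis was possible because the labels give no replicate numbers. Title series was the only matching used, as a block and within series. Series E holds only upf1Δ over WT and Dupf1+Dnpl3 over npl3Δ at 30 min. It had no term of its own in the fixed block and was not left out in turn. Single pairs, 2 to 5 usable spots on many arrays and unknown signal over background limit the second probe.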
